A study of Mus musculus with 7 samples.

Results

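The transcripts described here are those of 9 mouse genes: 4 that make, load or break down the inhibitory transmitter GABA (*Gad1*, *Gad2*, *Slc32a1* and *Abat*) and 5 that encode transcription factors of the cortical interneuron lineage (*Lhx6*, *Dlx1*, *Dlx2*, *Dlx5* and *Dlx6*). They were chosen by name, and all 9 were found among the 24346 genes measured. They were read by bulk RNA-seq of the cerebral cortex at postnatal day 100, with 1 library from each of 4 CrT-/y and 3 CrT+/y males. CrT-/y males are hemizygous for a constitutive deletion of exons 5 to 7 of *Slc6a8*, the X-linked gene of the creatine transporter, and CrT+/y males are their wild-type littermates, both on a C57BL/6J background; the sources used here do not say which animals shared a litter. The deletion was present in every cell type, so no comparison below is specific to neurons, and RNA of whole cortex was read without separating cells.

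GABA is made from glutamate by 2 glutamate decarboxylases. *Gad1* encodes the form found throughout the cell and *Gad2* the form concentrated at nerve terminals. *Slc32a1* encodes the transporter that loads GABA into synaptic vesicles, and *Abat* the mitochondrial transaminase that starts its breakdown. In the embryo, *Dlx1* and *Dlx2* act in the ganglionic eminences, where they are needed for the specification and migration of GABAergic neurons and for the expression of *Dlx5* and *Dlx6*. *Lhx6* acts in cells of the medial ganglionic eminence, the source of parvalbumin and somatostatin interneurons. These factors stay on at low level in adult interneurons, and the same genes are used by GABAergic neurons of the striatum and olfactory bulb.

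The *Dlx* genes stand in the genome as 2 pairs that face each other. On GRCm38 (mm10, GENCODE M21 annotation), *Dlx1* covers chr2:71528113-71533981 on the plus strand and *Dlx2* chr2:71543408-71546754 on the minus strand, with 9426 bp between them. *Dlx6* covers chr6:6863334-6868568 on the plus strand and *Dlx5* chr6:6877805-6882085 on the minus strand, 9236 bp apart. *Gad1* (chr2:70553072-70602014, plus strand), *Gad2* (chr2:22622205-22693874, plus strand), *Slc32a1* (chr2:158610767-158615748, plus strand) and *Lhx6* (chr2:36081953-36105408, minus strand) also lie on chromosome 2, and *Abat* lies at chr16:8513429-8621568 on the plus strand. The homeobox, the exonic coding stretch for the DNA-binding homeodomain, is the conserved stretch that bears on whether reads of the 4 *Dlx* transcripts can be told apart, so its 180 bases are shown for each, 5′ to 3′ on the coding strand, with the 106 bases that are identical in all 4 in capitals.
Dlx1: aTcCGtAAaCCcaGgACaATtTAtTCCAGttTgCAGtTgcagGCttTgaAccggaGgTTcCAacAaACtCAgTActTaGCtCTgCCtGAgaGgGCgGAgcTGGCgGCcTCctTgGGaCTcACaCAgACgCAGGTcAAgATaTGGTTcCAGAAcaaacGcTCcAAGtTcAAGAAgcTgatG
Dlx2: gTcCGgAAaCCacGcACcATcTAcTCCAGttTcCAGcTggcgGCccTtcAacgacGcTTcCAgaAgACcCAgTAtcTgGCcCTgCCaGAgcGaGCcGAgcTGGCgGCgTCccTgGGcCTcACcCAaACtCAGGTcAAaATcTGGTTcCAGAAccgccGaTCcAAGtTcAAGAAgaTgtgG
Dlx5: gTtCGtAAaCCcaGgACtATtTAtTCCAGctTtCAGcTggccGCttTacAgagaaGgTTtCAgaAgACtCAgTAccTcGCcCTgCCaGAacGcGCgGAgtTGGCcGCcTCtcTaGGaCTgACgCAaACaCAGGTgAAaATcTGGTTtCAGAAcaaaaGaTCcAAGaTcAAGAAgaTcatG
Dlx6: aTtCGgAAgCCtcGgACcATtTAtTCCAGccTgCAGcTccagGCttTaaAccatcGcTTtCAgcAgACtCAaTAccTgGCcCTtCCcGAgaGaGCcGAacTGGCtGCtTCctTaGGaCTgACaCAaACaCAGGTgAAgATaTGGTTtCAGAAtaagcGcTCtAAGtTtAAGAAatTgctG

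Each homeobox is split over 2 exons, of which the first holds 132 and the second 48 of its bases: chr2:71531025-71531156 and chr2:71532264-71532311 in *Dlx1*, chr2:71545384-71545515 and chr2:71544877-71544924 in *Dlx2*, chr6:6879526-6879657 and chr6:6878441-6878488 in *Dlx5*, and chr6:6865140-6865271 and chr6:6867041-6867088 in *Dlx6*. Between pairs of these 4 stretches, identity ran from 71.1% (*Dlx2* and *Dlx6*) to 76.7% (*Dlx1* and *Dlx6*). The longest run of bases shared exactly by any pair of *Dlx* transcripts was 23 (*Dlx2* and *Dlx6*), against reads of 150 bases, aligned by the authors with up to 2 mismatches. *Gad1* and *Gad2* shared at most 17 bases in a row, and their aligned coding sequences were identical at 67.4% of positions. The values of the 9 genes were therefore read as separate measurements.

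*Slc6a8* itself was read first as a check of the genotypes. It stood at 12.4, 14.9, 14.7 and 15.7 FPKM (fragment counts scaled to transcript length and to the mapped fragments of the library) in CrT-/y replicates 0 to 3 and at 32.3, 29.6 and 28.0 FPKM in CrT+/y replicates 1 to 3, a log2 fold change of -1.05 ± 0.087 (SE; limma, adjusted p = 0.0024), and every label matched. The summed FPKM of a library ran from 382949 to 403414. The study gives read numbers for its replicates, but it numbers the CrT-/y animals otherwise than the labels do, so depth was not tied to single animals here. CrT+/y replicate 2 stood apart in the sum of choroid plexus and ependymal markers, at 407.8 FPKM against 11.96 to 59.9 in the other 6 animals. Most of that sum was *Ttr*, a choroid plexus gene, at 379.4 FPKM. The ependymal markers did not stand apart: *Foxj1*, *Ccdc153* and *Tmem212* were higher in CrT-/y replicate 3. Results below are also given without CrT+/y replicate 2 where that changes them.

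The GABA machinery was far more abundant than the transcription factors. FPKM are scaled to transcript length, so levels can be set side by side, and in both genotypes the order of mean levels was *Gad1*, *Abat*, *Gad2*, *Slc32a1*, *Lhx6*, *Dlx5* and *Dlx1*, with *Dlx6* and *Dlx2* last. *Gad1* exceeded *Abat*, *Abat* exceeded *Gad2* and *Slc32a1* exceeded *Lhx6* with no overlap between animals. *Gad2* and *Slc32a1* overlapped in both genotypes, as did *Lhx6* and *Dlx5*. Among the lowest genes, *Dlx5*, *Dlx1* and *Dlx2* kept separate ranges from one another in that order in CrT+/y animals, whereas in CrT-/y animals each of *Dlx5*, *Dlx1*, *Dlx6* and *Dlx2* overlapped with the next. The spread over all 7 animals, as highest over lowest value, was 1.18 for *Abat*, 1.27 for *Lhx6*, 1.35 for *Slc32a1*, 1.37 for *Gad1*, 1.44 for *Gad2* and 1.46 for *Dlx1*, and it was wider for *Dlx2* (1.64), *Dlx5* (1.91) and *Dlx6* (2.93).

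**Figure D1:**
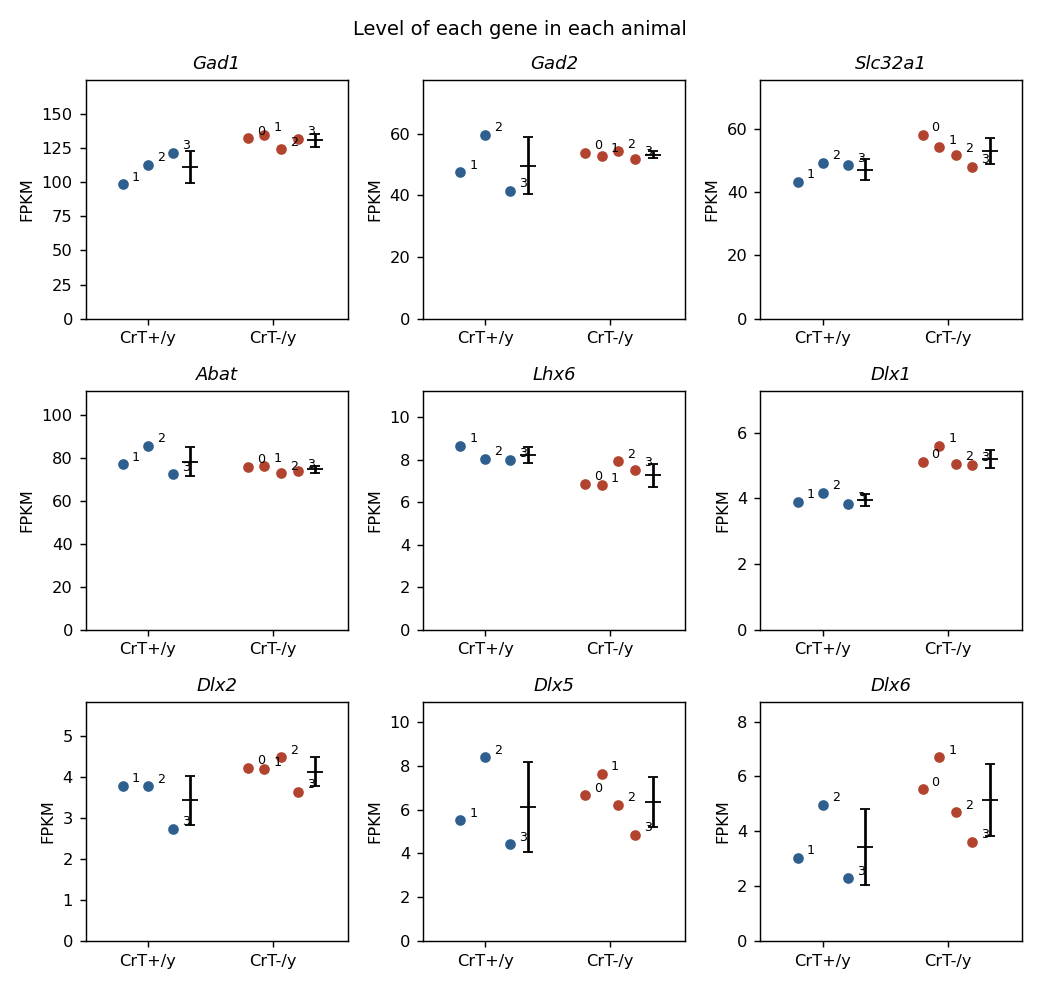
FPKM of each of the 9 genes (y axes, from 0) in each animal, CrT+/y in blue and CrT-/y in red, with the replicate number beside each point and the mean ± SD as bars. *Gad1* and *Dlx1* are higher in all 4 CrT-/y animals than in all 3 CrT+/y animals, *Lhx6* is lower in all 4, and the other 6 genes overlap.

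Comparing the genotypes asks whether cortical inhibitory transcripts differ when creatine uptake is lost. *Gad1* and *Dlx1* rose in CrT-/y cortex, and no member fell. *Gad1* was 17.8% and *Dlx1* 31.2% above the CrT+/y mean, while *Gad2*, *Slc32a1*, *Abat*, *Lhx6*, *Dlx2*, *Dlx5* and *Dlx6* did not pass the test (limma on log2(FPKM + 0.1), Benjamini-Hochberg adjusted p under 0.1 over the 12988 genes that averaged 1 FPKM or more; all 9 members were among them). Of all genes tested, 10.1% passed, 2.90% as higher and 7.25% as lower in CrT-/y animals (28.6% of calls higher; 48.8% after quantile normalization and 61.5% after upper quartile scaling); 2 of 9 members passed, both as higher. The median log2 fold change of the members was 0.17, against -0.03 over all genes tested, and 7 of 9 members had a log2 fold change above 0, against 41.8% of all genes. In bulk tissue, a difference in the number of cells of a type and a difference in RNA per cell cannot be told apart.

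**Figure D2:**
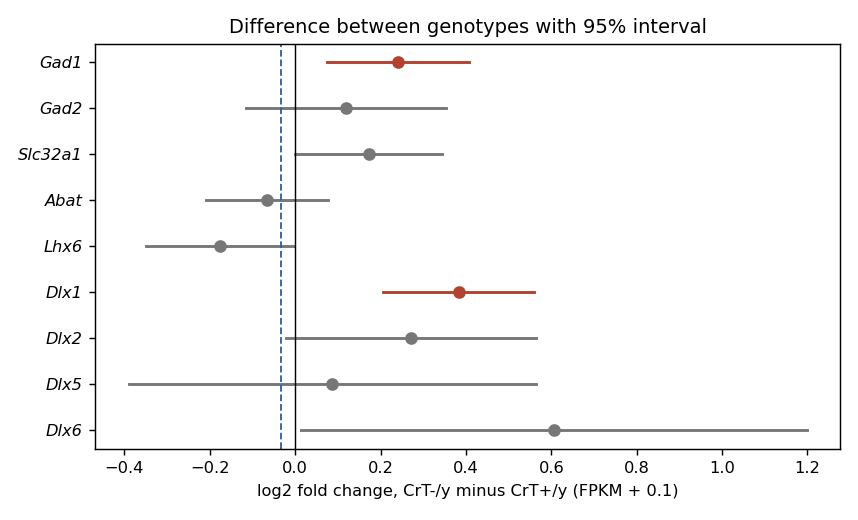
Log2 fold change of FPKM + 0.1 (x axis, CrT-/y minus CrT+/y) of each of the 9 genes with its 95% interval from limma; red marks the 2 genes that passed at adjusted p under 0.1 and the dashed line the median of all genes tested (-0.03). The intervals of *Gad1*, *Dlx1* and *Dlx6* lie above 0, and that of *Dlx6*, from 0.01 to 1.20, is the widest. The interval of *Lhx6*, from -0.35 to -0.0022, lies below 0, and those of the other genes hold 0.

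*Gad1* stood at 132.1, 134.6, 123.9 and 131.7 FPKM in CrT-/y replicates 0 to 3 and at 98.4, 112.8 and 121.3 FPKM in CrT+/y replicates 1 to 3. Every CrT-/y animal was above every CrT+/y animal, with 123.9 and 121.3 FPKM as the closest values, and the CrT+/y animals were the more scattered (130.6 ± 4.63 against 110.9 ± 11.6 FPKM, SD, n = 4 and 3). The log2 fold change was 0.24 ± 0.074 (SE), with a 95% interval of 0.07 to 0.41 (limma, adjusted p = 0.0970; two-sided exact permutation test over the 35 splits, p = 0.0286, the smallest this design allows). Of all genes tested, 6.57% had every CrT-/y animal higher and 15.0% every CrT-/y animal lower. The call was close to the threshold: it was lost when any of 6 of the 7 animals was left out (adjusted p in limma 0.17, 0.23, 0.16 and 0.18 without CrT-/y replicates 0, 1, 2 and 3, and 0.22 and 0.14 without CrT+/y replicates 1 and 2), and without CrT+/y replicate 3 adjusted p was 0.0186. The fold change was above 0 each time, between 0.16 (without CrT+/y replicate 1) and 0.31.

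*Gad2*, the terminal decarboxylase, overlapped between genotypes. It measured 53.9, 52.9, 54.3 and 51.9 FPKM in CrT-/y and 47.5, 59.6 and 41.5 FPKM in CrT+/y animals. The 4 CrT-/y animals lay within a narrow band inside the CrT+/y range, and CrT+/y replicate 2 was the highest of all 7. The log2 fold change was 0.12 ± 0.10 (SE), with an interval of -0.12 to 0.35 (limma, adjusted p = 0.51; exact permutation p = 0.40), which holds the *Gad1* value. Leaving out CrT+/y replicate 2 moved the fold change to 0.26 (limma, adjusted p = 0.0901), and leaving out replicate 3 of that genotype moved it to -0.00026. Within animals, the ratio of *Gad2* to *Gad1* was 0.408, 0.393, 0.439 and 0.394 in CrT-/y and 0.483, 0.529 and 0.342 in CrT+/y replicates. The CrT-/y ratios fell between the CrT+/y ones (two-sided exact permutation p = 0.486; 0.543 adjusted over the 5 ratios chosen for comparison).

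*Slc32a1*, the vesicular loader, stood at 58.1, 54.2, 51.6 and 48.0 FPKM in CrT-/y and at 43.2, 49.2 and 48.5 FPKM in CrT+/y animals. Only CrT-/y replicate 3 lay within the CrT+/y range. This was a log2 fold change of 0.17 ± 0.076 (SE), with an interval of -8.0e-06 to 0.34 (limma, adjusted p = 0.20; exact permutation p = 0.114), or 0.11 with CrT+/y replicate 1 left out. Its ratio to *Gad1* averaged 0.406 ± 0.0314 in CrT-/y and 0.425 ± 0.0218 in CrT+/y animals (SD, n = 4 and 3; exact permutation p = 0.543). *Abat*, which degrades GABA, was the steadiest of the 9 genes, at 75.7, 76.3, 72.7 and 73.7 FPKM in CrT-/y and 77.0, 85.5 and 72.3 FPKM in CrT+/y animals. The groups overlapped, and the log2 fold change of -0.07 had an interval of -0.21 to 0.08 (limma, adjusted p = 0.55) and was 7.2e-05 with CrT+/y replicate 2 left out.

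Other genes of GABA metabolism and uptake showed no common direction. Of 20 listed, 19 were tested, 2 rose and 1 fell, against 10.1% of all genes that passed, and the median of their log2 fold changes was -0.0019. *Aldh9a1*, an aldehyde dehydrogenase able to make GABA from putrescine-derived aldehyde, rose from 10.6 ± 0.288 to 12.4 ± 0.471 FPKM (log2 fold change 0.22; limma, adjusted p = 0.0697). *Slc6a13*, a GABA transporter best known from meninges, vessels and peripheral organs, rose from 4.88 ± 0.618 to 6.97 ± 1.40 FPKM (0.49; adjusted p = 0.0869), with 9.07 FPKM in CrT-/y replicate 3. *Maob*, a monoamine oxidase on an astrocytic route to GABA, fell from 12.01 ± 0.225 to 10.05 ± 0.927 FPKM (-0.26; adjusted p = 0.0952). In 12 other ways of processing, *Aldh9a1* passed in 11, *Slc6a13* in 7 and *Maob* in 3. All 3 calls were weak, each kept in only 1 of the 7 omissions of an animal: that of CrT+/y replicate 3 for *Aldh9a1* and *Maob*, and that of CrT+/y replicate 2 for *Slc6a13* (the highest adjusted p in limma was 0.19, 0.20 and 0.22). *Aldh5a1*, the next enzyme after *Abat*, was at 23.2 FPKM in both genotypes (limma, adjusted p = 0.99).

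Among the transcription factors, *Dlx1* gave the clearest difference. It stood at 5.11, 5.59, 5.05 and 5.01 FPKM in CrT-/y replicates 0 to 3 and at 3.89, 4.16 and 3.82 FPKM in CrT+/y replicates 1 to 3. The lowest CrT-/y value was above the highest CrT+/y value, and the scatter was small in both genotypes (5.19 ± 0.271 against 3.96 ± 0.18 FPKM, SD, n = 4 and 3). The log2 fold change was 0.38 ± 0.079 (SE), with an interval of 0.21 to 0.56 (limma, adjusted p = 0.0417; exact permutation p = 0.0286). The fold change stayed between 0.35 and 0.42 whichever animal was left out, and the call was lost without CrT-/y replicate 1, CrT-/y replicate 2 or CrT+/y replicate 1 (limma, adjusted p = 0.13, 0.11 and 0.11). Without CrT+/y replicate 2, the choroid-rich library, it was 0.42 (limma, adjusted p = 0.0632).

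*Dlx2*, the partner of *Dlx1* on chromosome 2, stood at 4.22, 4.19, 4.48 and 3.64 FPKM in CrT-/y and at 3.79, 3.77 and 2.74 FPKM in CrT+/y animals. CrT-/y replicate 3 lay within the CrT+/y range and the other 3 above it. Its log2 fold change was 0.27 ± 0.13 (SE), with an interval of -0.02 to 0.56 (limma, adjusted p = 0.23; exact permutation p = 0.114), which holds the *Dlx1* value, and it was 0.12 with CrT+/y replicate 3 left out. The ratio of *Dlx1* to *Dlx2* averaged 1.26 ± 0.115 in CrT-/y and 1.17 ± 0.193 in CrT+/y animals and overlapped (exact permutation p = 0.457). The ratio of *Dlx1* to *Gad1* averaged 0.0398 in CrT-/y and 0.0360 in CrT+/y animals and overlapped too (exact permutation p = 0.143, adjusted 0.357), so the larger fold of *Dlx1* was not separated from that of *Gad1*.

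*Dlx6* and *Dlx5* were the most variable members. *Dlx6* stood at 5.54, 6.70, 4.69 and 3.61 FPKM in CrT-/y and at 3.02, 4.96 and 2.29 FPKM in CrT+/y animals. The groups overlapped through CrT+/y replicate 2, which was above CrT-/y replicates 2 and 3. The log2 fold change was the highest of the 9 but also the least certain, at 0.61 ± 0.26 (SE; limma, adjusted p = 0.19; exact permutation p = 0.171), reaching 0.90 when CrT+/y replicate 2 was left out (limma, adjusted p = 0.0891) and 0.36 when replicate 3 of that genotype was (adjusted p = 0.36). *Dlx5* stood at 6.66, 7.65, 6.22 and 4.86 FPKM in CrT-/y and at 5.51, 8.41 and 4.41 FPKM in CrT+/y animals. These ranges overlapped almost wholly, with a log2 fold change of 0.09 ± 0.21 (SE; limma, adjusted p = 0.83) that moved both ways with single animals: to -0.01 when CrT-/y replicate 1 was left out, -0.12 when CrT+/y replicate 3 was, 0.21 when CrT-/y replicate 3 was and 0.34 when CrT+/y replicate 2 was.

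Although *Dlx5* and *Dlx6* each overlapped between genotypes, their ratio did not. *Dlx5* to *Dlx6* was 1.20, 1.14, 1.33 and 1.35 in CrT-/y replicates 0 to 3 and 1.82, 1.69 and 1.93 in CrT+/y replicates 1 to 3. All 4 CrT-/y ratios were below all 3 CrT+/y ratios (1.25 ± 0.0986 against 1.81 ± 0.117, SD, n = 4 and 3). The log2 difference was -0.52 (two-sided exact permutation p = 0.0286, the smallest possible; 0.143 adjusted over 5 ratios, which misses 0.1), and it stayed between -0.56 and -0.48 whichever animal was left out. A ratio within a library does not depend on how libraries were scaled.

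**Figure D3:**
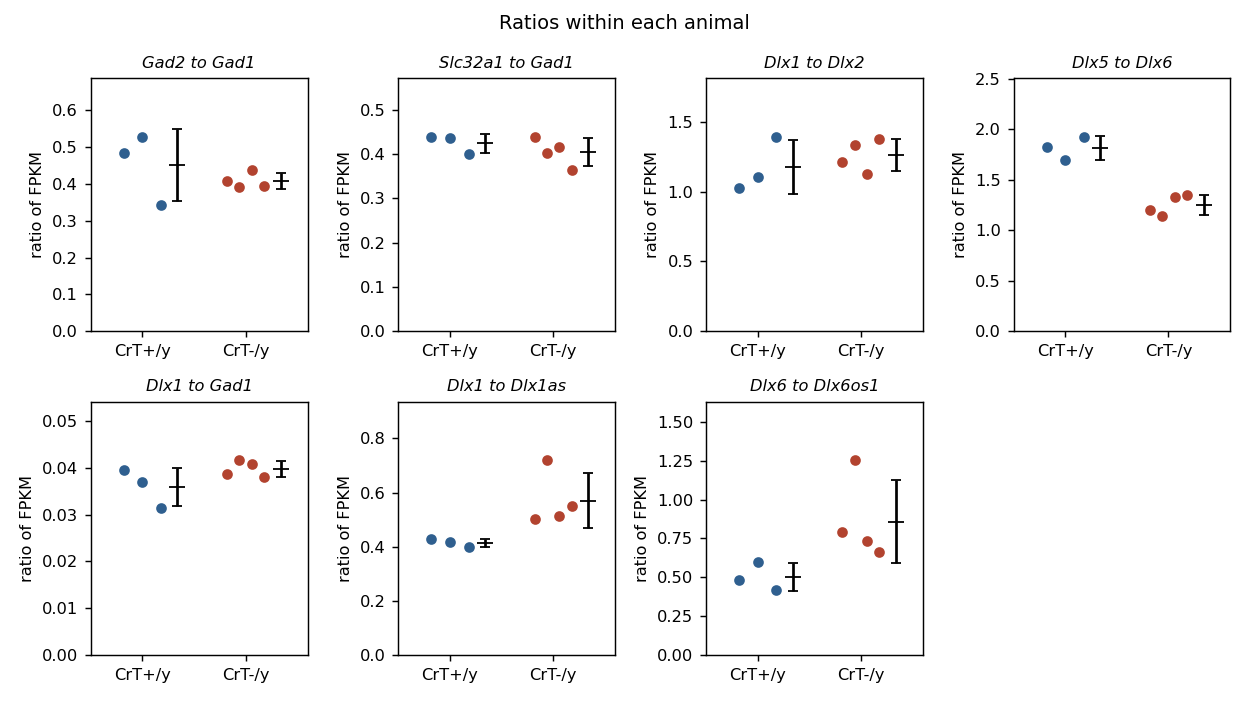
Ratio of FPKM of the gene pairs named above each panel (y axes, from 0) in each animal, CrT+/y in blue and CrT-/y in red, with mean ± SD as bars. *Dlx5* to *Dlx6* is between 1.14 and 1.35 in CrT-/y and between 1.69 and 1.93 in CrT+/y animals, *Dlx1* to *Dlx1as* and *Dlx6* to *Dlx6os1* are higher in all 4 CrT-/y animals, and the other 4 ratios overlap.

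Both *Dlx* pairs have an antisense transcript. *Dlx1as* (chr2:71516454-71537891, minus strand) shares 335 exonic bases with *Dlx1*, 6.21% of its 5396, and *Dlx6os1* (chr6:6820189-6871592, minus strand) spans *Dlx6* without sharing an exonic base, whereas *Dlx6os2* shares 104 bases with *Dlx6*. Whether the authors counted by strand is not given in the sources used here, so reads from the shared bases cannot be told apart. *Dlx1as* stood at 10.2, 7.78, 9.86 and 9.11 FPKM in CrT-/y and 9.09, 9.93 and 9.59 FPKM in CrT+/y animals and overlapped (log2 fold change -0.05, or 0.01 after upper quartile scaling; limma, adjusted p = 0.77). *Dlx6os1* overlapped as well, at 7.03, 5.36, 6.39 and 5.47 FPKM against 6.28, 8.30 and 5.45 FPKM (-0.12; limma, adjusted p = 0.63). Chosen after the values were seen, the ratio of *Dlx1* to *Dlx1as* was 0.502, 0.718, 0.512 and 0.550 in CrT-/y and 0.428, 0.419 and 0.399 in CrT+/y animals, and that of *Dlx6* to *Dlx6os1* 0.788, 1.25, 0.734 and 0.660 against 0.482, 0.598 and 0.420. Both were higher in every CrT-/y animal, and both are given as a description.

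*Lhx6*, the factor of the medial ganglionic eminence lineage, lay on the other side of 0. It stood at 6.87, 6.79, 7.93 and 7.51 FPKM in CrT-/y and at 8.64, 8.05 and 7.96 FPKM in CrT+/y animals. All CrT-/y animals were below all CrT+/y animals, though replicate 2 (7.93) was separated from the lowest CrT+/y value (7.96) by little, and 15.0% of all genes were ordered this way. The log2 fold change was -0.18 ± 0.077 (SE), with an interval of -0.35 to -0.0022, and did not pass (limma, adjusted p = 0.20; exact permutation p = 0.0571). It was below 0 in 19 of 19 alternative analyses, which all reuse the same animals. It shrank to -0.14 after median centring and -0.11 after upper quartile scaling (limma, adjusted p = 0.31 and 0.38). *Sox6*, which acts with *Lhx6* in the same lineage, was likewise ordered, at 4.17 ± 0.348 FPKM in CrT-/y and 4.72 ± 0.303 in CrT+/y animals (-0.18; limma, adjusted p = 0.26). *Pvalb* and *Sst*, the markers of the interneurons this lineage yields, overlapped between genotypes, with log2 fold changes of -0.54 (limma, adjusted p = 0.24) and -0.05 (adjusted p = 0.76).

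Of 28 other transcription factors of the interneuron lineage, 22 were tested, none rose and 2 fell (0 passed after quantile normalization, and 1 after median centring or upper quartile scaling). With a pseudocount of 1, 3 passed. *Sp8* came closest to passing as higher, with a log2 fold change of 0.83 (limma, adjusted p = 0.1001). *Satb1*, a chromatin organiser needed for the maturation of somatostatin interneurons and also present in excitatory cells, fell from 37.2 ± 5.04 to 30.1 ± 0.543 FPKM (log2 fold change -0.30; limma, adjusted p = 0.0782). *Nfix*, a nuclear factor I gene of neural progenitors, neurons and glia, fell from 92.7 ± 16.5 to 73.2 ± 2.44 FPKM (-0.33; adjusted p = 0.0963). *Satb1* passed in 5 and *Nfix* in 4 of 12 other ways of processing. Both calls were lost in 5 of 7 omissions of an animal, without any of the CrT-/y replicates or CrT+/y replicate 1, with adjusted p up to 0.17 and 0.22 in limma. Over the 22 factors the median was -0.04 on the log2 scale, beside -0.03 over all genes, and 2 of 22 passing is close to the background of 10.1%.

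Transcripts of the striatum, a region next to the cortex made up largely of GABAergic neurons, were measured beside the members. Over 20 striatal markers, the summed level was 632.6, 738.2, 436.4 and 352.6 FPKM in CrT-/y replicates 0 to 3 and 232.3, 684.4 and 358.9 FPKM in CrT+/y replicates 1 to 3. The sum thus overlapped between genotypes, with CrT-/y replicate 1, CrT+/y replicate 2 and CrT-/y replicate 0 highest. Of 18 markers tested, 17 had a log2 fold change above 0 (median 0.56), against 41.8% of all genes. Only 1 passed, against 10.1% of all genes: *Pdyn*, the prodynorphin gene (14.4 ± 1.16 against 10.01 ± 2.25 FPKM, log2 fold change 0.54; limma, adjusted p = 0.0640, not passing without CrT-/y replicates 1, 2 or 3 or CrT+/y replicate 1, where it reached 0.17). *Pdyn* stood at 15.3 FPKM both in CrT-/y replicate 1 and in CrT-/y replicate 3, the animals of that genotype with the highest and the lowest sum. No marker of the list was at 0 in all animals, and *Isl1* was at 0 in CrT+/y replicate 1.

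The 3 animals with the highest striatal sum were also the 3 highest for *Dlx5* and for *Dlx6*. Among CrT-/y animals, *Dlx5*, *Dlx6* and *Dlx1* all followed the order of the sum, and CrT+/y replicate 2 was the highest CrT+/y animal for each of them. For *Gad1*, *Gad2*, *Slc32a1*, *Abat*, *Dlx1* and *Dlx2*, 2 of the 3 highest animals were shared, and for *Lhx6* 1. Across genotypes the order of *Gad1* and *Dlx1* was not that of the sum: CrT-/y replicate 3, with a sum of 352.6 FPKM, had 131.7 FPKM of *Gad1* and 5.01 FPKM of *Dlx1*, and CrT+/y replicate 2, with 684.4 FPKM, had 112.8 and 4.16 FPKM. In the *Dlx5* to *Dlx6* ratio, the animal with the highest sum of each genotype had the lowest ratio, and the ranges of the genotypes stayed apart. The part of striatal transcripts in the differences of the 9 genes was not tested.

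**Figure D4:**
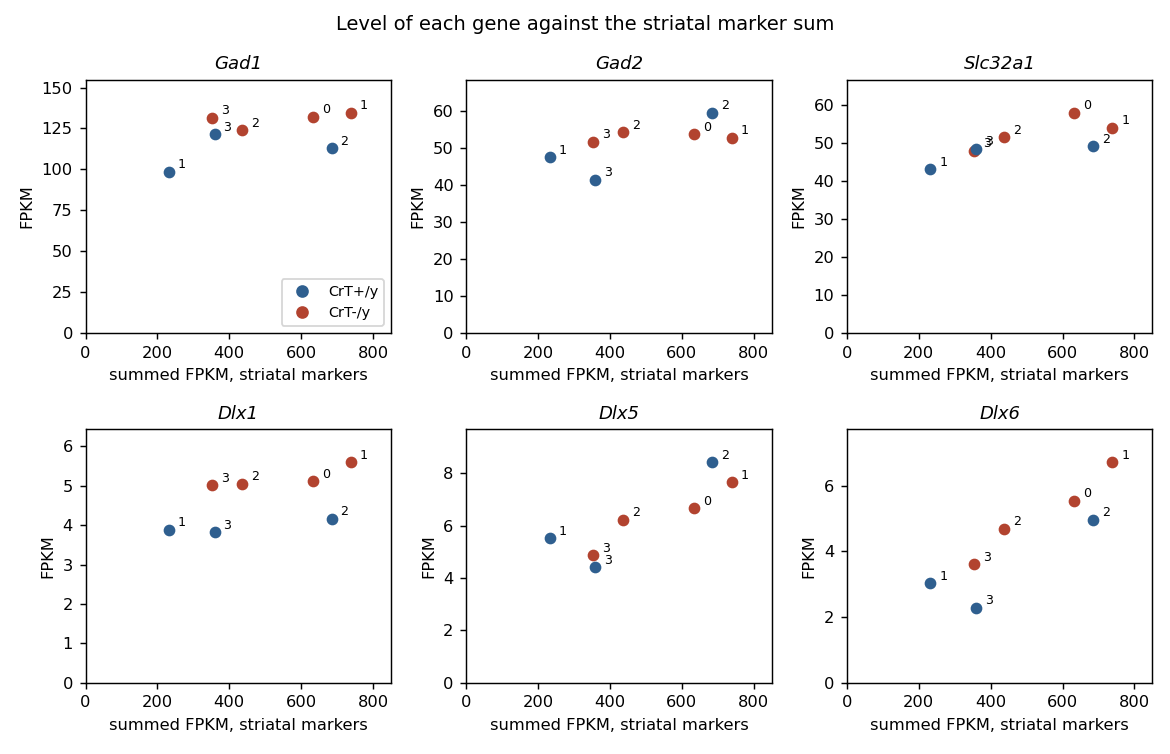
FPKM of 6 of the genes (y axes, from 0) against the summed FPKM of 20 striatal markers in the same animal (x axes), CrT+/y in blue and CrT-/y in red, with replicate numbers beside the points. *Dlx5* and *Dlx6* are highest in the 3 animals with the highest sums. *Gad1* and *Dlx1* are higher in all 4 CrT-/y animals than in any CrT+/y animal, and among CrT-/y animals *Dlx1* follows the order of the sum.

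Markers of the olfactory bulb and of migrating neuroblasts, a list of GABAergic, glutamatergic and sensory cells, summed to 314.6 to 365.9 FPKM in CrT-/y and 276.1 to 344.6 FPKM in CrT+/y animals. *Tubb3*, *Pcp4l1* and *Meis2*, which many other neurons express, made up 85.0% to 88.9% of that sum, and the other 17 genes summed to 38.9 to 55.0 FPKM in CrT-/y and 31.8 to 43.9 FPKM in CrT+/y animals. Of 13 tested (20 listed, none at 0 in all animals), 12 had a log2 fold change above 0 (median 0.18), against 41.8% of all genes. Only 1 passed, against 10.1% of all genes: *Cdhr1*, a cadherin of mitral and tufted cells. It stood at 3.13, 9.14, 2.83 and 3.44 FPKM in CrT-/y and at 1.02, 2.45 and 1.02 FPKM in CrT+/y animals (log2 fold change 1.51; limma, adjusted p = 0.0789, not passing in 6 of 7 omissions of an animal, all but that of CrT+/y replicate 2). *Sp8*, a zinc-finger factor of bulb and caudal interneurons, had 1.43 ± 0.183 against 0.803 ± 0.381 FPKM (0.83; limma, adjusted p = 0.10). The part of these cells in the differences of the 9 genes was not tested. Markers of brain regions outside the cortex summed to at most 22.6 FPKM in any animal, with *Hoxa5* at 0 in all.

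By the likeness of their log2 levels over the 7 animals, the 5 of 12987 other genes nearest to *Gad1* were *Dtx3*, *Hsd3b7*, *Klhdc8a*, *Cela1* and *Taz* (Pearson r from 0.989 down to 0.976). Among the 5 nearest to *Dlx1* (r from 0.994 down to 0.980) were *Gtf2ird1*, *Degs2*, *Xrcc3* and *Fam105a*. None of them is a member of the lists used here. *Dlx1* had r = 0.80 with *Gad1*, *Slc32a1* had r = 0.79 and *Gad2* had r = 0.19 with it, so *Gad2* ranked 4475 among the genes compared with *Gad1*, and *Lhx6* had r = -0.88. These values describe 7 points that share 2 genotypes and the scaling and depth of each library.

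**Figure D5:**
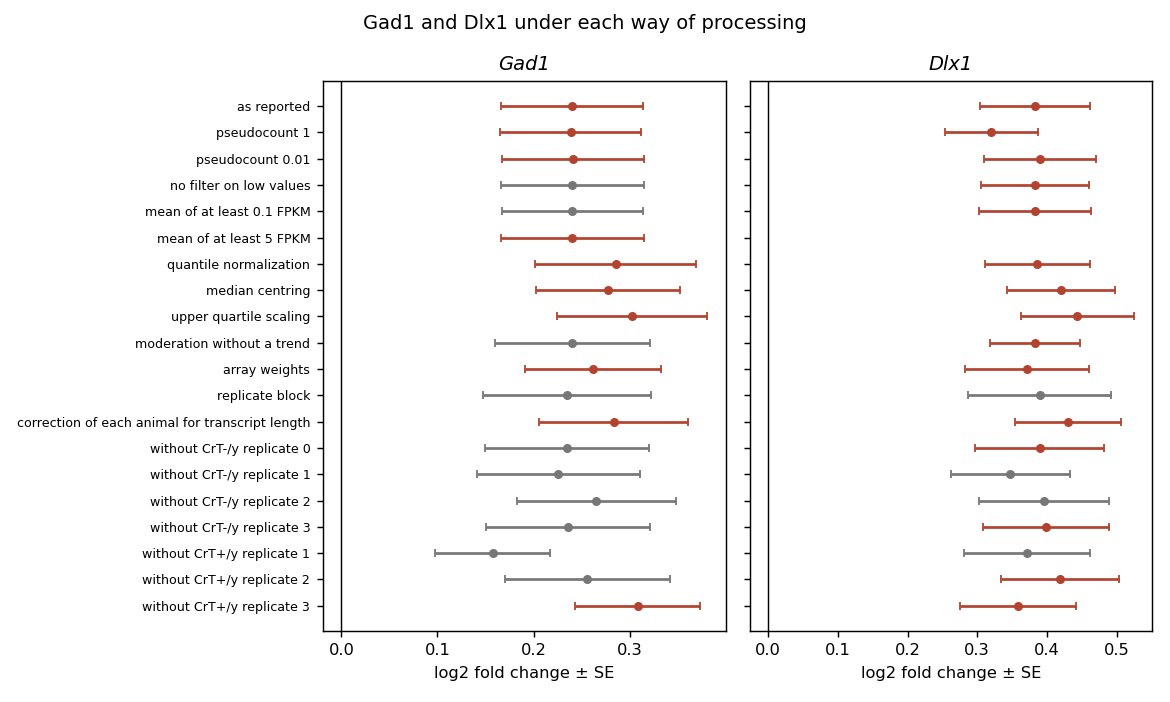
Log2 fold change ± SE (x axes, CrT-/y minus CrT+/y) of *Gad1* and *Dlx1* under each way of processing named at the left, red where adjusted p was under 0.1 in limma and grey where it was not; *Dlx1* has no value where genes needed a mean of 5 FPKM. *Gad1* passed in 9 of 19 alternatives and *Dlx1* in 14 of 18, with log2 fold changes above 0 in all of them.

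The differences of *Gad1* and *Dlx1* kept their direction under every way of processing tried, from 0.16 to 0.31 for *Gad1* and from 0.32 to 0.44 for *Dlx1*, as the plot of log2 fold changes by setting shows. No label says which of these 7 animals were littermates, so the p-values cover only the spread between them.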

How the data were processed

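Total RNA of the cerebral cortex was extracted with the Qiagen RNeasy Midi kit, made into Universal Plus mRNA-Seq libraries and sequenced as paired reads of 150 bases on an Illumina NovaSeq. The authors aligned reads to mm10 (Bowtie and Cuffnorm in the submitters' processing notes), required each read to have a single placement within the annotated transcriptome, tolerating 2 mismatches, and deposited the FPKM of every gene in every animal. Annotation release and strand setting are not given in the sources used here, and weakly expressed genes gave no clear step from which depth could be read. Genotypes came from the labels. Genes averaging 1 FPKM or more were tested on log2(FPKM + 0.1) with limma 3.58.1 (R 4.3.3), with a variance trend and Benjamini-Hochberg adjustment, calling adjusted p under 0.1. Single genes and ratios were tested by two-sided exact permutation over 35 splits (Python 3.11.15, scipy 1.17.1), which cannot go below 0.0286. Sequences and positions are from GENCODE M21 on GRCm38. The 9 genes, the lists and the tests were chosen with earlier results of these data known, so no count over a list is independent evidence. Named genes are the 9 members, *Slc6a8*, called genes of each related list, uncalled ones set beside a member, and the 5 most alike to *Gad1* and *Dlx1*. A few single genes that this rule names are not reported here. Alternatives covered pseudocounts, filters, scalings, moderation, weights, a replicate block, transcript length and omission of each animal.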

Additional observations from a re-analysis of the deposited data

Results flagged for a closer look

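*Dlx1* in CrT-/y replicate 1, at 5.59 FPKM, stood apart from the other 3 CrT-/y animals, which lay between 5.01 and 5.11 FPKM: its gap to the nearest of them was 0.83 of the range of the 4, just at Dixon's critical value for 4 samples. It was the only such sample among 31 groups of 4 values examined, and chance flags about 1 in 20 groups. Without this animal the log2 fold change of *Dlx1* was 0.35 (limma, adjusted p = 0.13). The same animal had the highest striatal marker sum, 738.2 FPKM, and the highest sum of olfactory bulb and neuroblast markers, 365.9 FPKM. The part of either in its *Dlx1* level was not tested.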

How the results depend on the processing

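Whether the replicate numbers of the labels pair the animals is not given in the sources used here. Deviations from the genotype means of same-numbered animals correlated at -0.08, 0.05 and -0.05 over 12988 genes. Between animals of unlike number the correlations ran from -0.20 to 0.25, so these values cannot decide whether a pairing exists. With the number as a replicate block, 0 of the 9 genes passed in limma (*Gad1* 0.23, adjusted p = 0.19; *Dlx1* 0.39, adjusted p = 0.11; unadjusted p = 0.0298 and 0.00617), and 576 of all genes were called, 166 higher and 410 lower. No CrT+/y animal has the number 0, so CrT-/y replicate 0 did not enter the comparison in the block fit. The log2 fold changes of that fit are the same as those with CrT-/y replicate 0 left out. Of the 2 members called, 1 was called with no filter on low values, with a mean of at least 0.1 FPKM, with a mean of at least 5 FPKM (*Dlx1* not tested) and with moderation without a trend. *Gad1* did not pass with no filter (0.24; limma, adjusted p = 0.15), with a mean of at least 0.1 FPKM (0.24; 0.11) or with moderation without a trend (0.24; 0.14). Over all genes, no filter gave 730 calls (206 higher, 524 lower), against 1318 (377 and 941). Calls lower in CrT-/y numbered 555 after quantile normalization, 527 after median centring and 625 without a trend; upper quartile scaling gave 741 higher and 463 lower, and array weights 602 higher. The share of calls that were higher was 28.6% as deposited, 48.8% after quantile normalization, 48.2% after median centring, 61.5% after upper quartile scaling and 47.0% after a transcript length correction added after the data were seen.

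Leaving out each animal gave 0 to 3 members called and 64 (without CrT-/y replicate 1) to 3736 (without CrT+/y replicate 3) genes in all, 11 to 1342 higher and 53 to 2394 lower. Log2 fold changes then ran from 0.16 to 0.31 for *Gad1*, -0.00026 to 0.26 for *Gad2*, 0.11 to 0.22 for *Slc32a1*, -0.12 to 7.2e-05 for *Abat*, -0.22 to -0.14 for *Lhx6*, 0.35 to 0.42 for *Dlx1*, 0.12 to 0.35 for *Dlx2*, -0.12 to 0.34 for *Dlx5* and 0.36 to 0.90 for *Dlx6*. Log2 differences of ratios ran from -0.31 to 0.0049 for *Gad2* to *Gad1*, -0.11 to -0.02 for *Slc32a1* to *Gad1*, 0.02 to 0.24 for *Dlx1* to *Dlx2*, 0.05 to 0.21 for *Dlx1* to *Gad1* and -0.56 to -0.48 for *Dlx5* to *Dlx6*. Without CrT-/y replicate 1, every called gene of the lists of related genes and markers lost its call. The cause of these shifts was not tested.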

Other observations

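Cortical interneuron class markers moved in both directions. Of 30 listed, 29 were tested, 2 rose and 1 fell (median log2 fold change -0.03; 10.1% of all genes passed). *Calb2*, the calretinin gene, stood at 14.1, 13.4, 13.1 and 9.82 FPKM in CrT-/y and 6.89, 9.50 and 6.92 FPKM in CrT+/y animals, higher in all 4 (log2 fold change 0.69; limma, adjusted p = 0.0436, not passing without CrT-/y replicates 1 or 2 or CrT+/y replicate 1, where it reached 0.14). *Adarb2*, a marker of interneurons of caudal origin, rose from 3.53 ± 0.464 to 4.88 ± 0.206 FPKM (0.46; adjusted p = 0.0445, up to 0.13 without CrT-/y replicates 1, 2 or 3 or CrT+/y replicate 1). *Cck*, a neuropeptide gene of some interneurons and of many excitatory cells, fell from 748.4 ± 103.7 to 550.5 ± 29.5 FPKM (-0.43; limma, adjusted p = 0.0499, up to 0.15 without any CrT-/y replicate or CrT+/y replicate 1). *Vip*, at 31.2 ± 0.588 against 30.5 ± 2.93 FPKM, overlapped.

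Markers of excitatory neurons, of neurons in general, of glia and of vessels gave calls in 1 direction in the values as deposited. Of 16 excitatory neuron markers, 3 fell, among them *Neurod6* and *Nrgn* (log2 fold changes -0.42 and -0.37; limma, adjusted p = 0.0609 and 0.0682), and none rose, with summed levels of 2996 to 3254 FPKM in CrT-/y and 3199 to 4005 in CrT+/y animals. Both named calls were lost in 5 of 7 omissions of an animal, those of CrT-/y replicates 0, 1 and 3 and CrT+/y replicate 1 in each case, CrT-/y replicate 2 for *Nrgn*, and CrT+/y replicate 2 for *Neurod6* (adjusted p up to 0.19 in limma). Of 12 pan-neuronal markers 3 fell, and of 40 astrocyte, oligodendrocyte, microglia and endothelial markers 5 fell, against 7.25% of all genes lower. These counts moved with the processing. Of the excitatory markers, 1 passed after quantile normalization or median centring, 2 after upper quartile scaling and 0 with no filter on low values. No astrocyte marker passed after any of these 3 scalings, and 1 microglia marker passed after quantile normalization and after upper quartile scaling. The part of these markers in the values of the 9 genes was not tested.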
